A study of Mus musculus with 21 samples.

Results

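The genes described here are the components of the Notch signalling pathway together with the proneural factor Neurog2, in the subcommissural organ (SCO) and the hippocampus of newborn mice. They were chosen by name: 38 genes were listed, from the receptors and ligands through the enzymes and nuclear partners of the receptor to its target genes, and 37 of the 31883 genes in the deposited table carry 1 of these names. Neurog1, the remaining name, is not analysed here. The SCO, a patch of secretory ependyma above the entrance to the aqueduct, releases SCO-spondin into the cerebrospinal fluid. The libraries were made from total RNA of C57BL/6 mice on postnatal day 0, with no genotype or treatment named in the labels: 4 from SCO and 5 from hippocampus, the tissue that served as the comparison. A further 12 samples of the series, taken on postnatal day 60, are not analysed here. The labels do not say whether each library came from 1 animal or from a pool, nor that libraries came from separate animals, so the p-values below measure the spread between these libraries, which may in part be technical.

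Notch signalling passes between touching cells. A ligand of the Delta or Jagged family on one cell binds a Notch receptor on its neighbour, the gamma-secretase complex then cuts the receptor within the membrane, and the freed intracellular part joins the DNA-binding protein RBPJ and a Mastermind co-activator in the nucleus. The best known targets are the Hes and Hey repressors, which in the developing brain keep neural progenitors from differentiating by repressing proneural basic helix-loop-helix (bHLH) genes such as Neurog2. Proneural factors in turn switch on Delta ligands, so cells that turn into neurons signal to the progenitors around them.

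Values are normalized counts, that is the reads of a gene divided by a size factor for the library, and the recovered depth was 35379988 to 151009954 reads per library. The tissue's own genes marked the SCO libraries. Sspo, which encodes SCO-spondin, had 2027 to 9720.5 normalized counts in the SCO libraries and 1.03 to 3.30 in the hippocampal ones. Of 13 markers of SCO and ependyma, 9 were called higher in SCO by the limma test described below, against 1.71% of all genes. A pair of libraries stood apart. SCO 4 had 0.339% of its normalized counts in 12 choroid plexus markers, nearly all from Ttr, against 0.0310% to 0.0404% in SCO 1 to 3 and 0.00127% to 0.0244% in hippocampus. Hippocampus 2 had 24.0% of its counts in its 100 most abundant genes, against 16.2% to 18.8% in the other 8 libraries.

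Across the 37 genes, all of which passed the filter on low values, Neurog2 was the only gene called different between the tissues, and it was lower in SCO. That is 0 members called higher and 1 lower in the limma test on log2(normalized counts + 1) with Benjamini-Hochberg adjustment over 28150 genes, or 2.70% of the members. Over all genes tested the same test called 3.05%, of which 1.71% of genes were higher and 1.34% lower in SCO, so the share among the members was near that of any gene. The count of 1 fell to 0 without SCO 3, SCO 4, hippocampus 1 or hippocampus 3, and without SCO 2 the single call was Heyl in place of Neurog2. At an unadjusted p under 0.05 there were 7 members, Dtx4 with the higher level in SCO and Neurog2, Heyl, Nrarp, Dtx1, Dner and Hes6 with the lower, which is 18.9% of the members against 15.5% of all genes. The median log2 fold change, SCO minus hippocampus, was 0.09 over the members and -0.04 over all genes, with 20 members positive and 17 negative. Among the members not called, the lowest adjusted p was 0.264.

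A missed threshold does not show equal levels, and the intervals of the differences set what can be said. Only Notch2 and Psen2 had a 95% interval that lay wholly within 1 log2 unit of 0, whereas for 14 members the interval reached past 1 log2 unit on both sides. The groups did not overlap for 1 member, Neurog2, with SCO below, where 8.53% of all genes tested did not overlap, 4.78% with SCO above and 3.75% with SCO below. This count was 7 without SCO 4, where 11.8% of all genes did not overlap. It was 1 to 3 without any other single library, for which the share over all genes was not counted. In the authors' deposited table, which tests all genes with an adjusted p, 12.7% of genes had an adjusted p under 0.05 and Neurog2 was again the single member among them. DESeq2 on the recovered reads called 12.8% of genes and, among the members, Neurog2 alone, and edgeR's quasi-likelihood test called 1.79% of genes and 0 members.

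**Figure D1:**
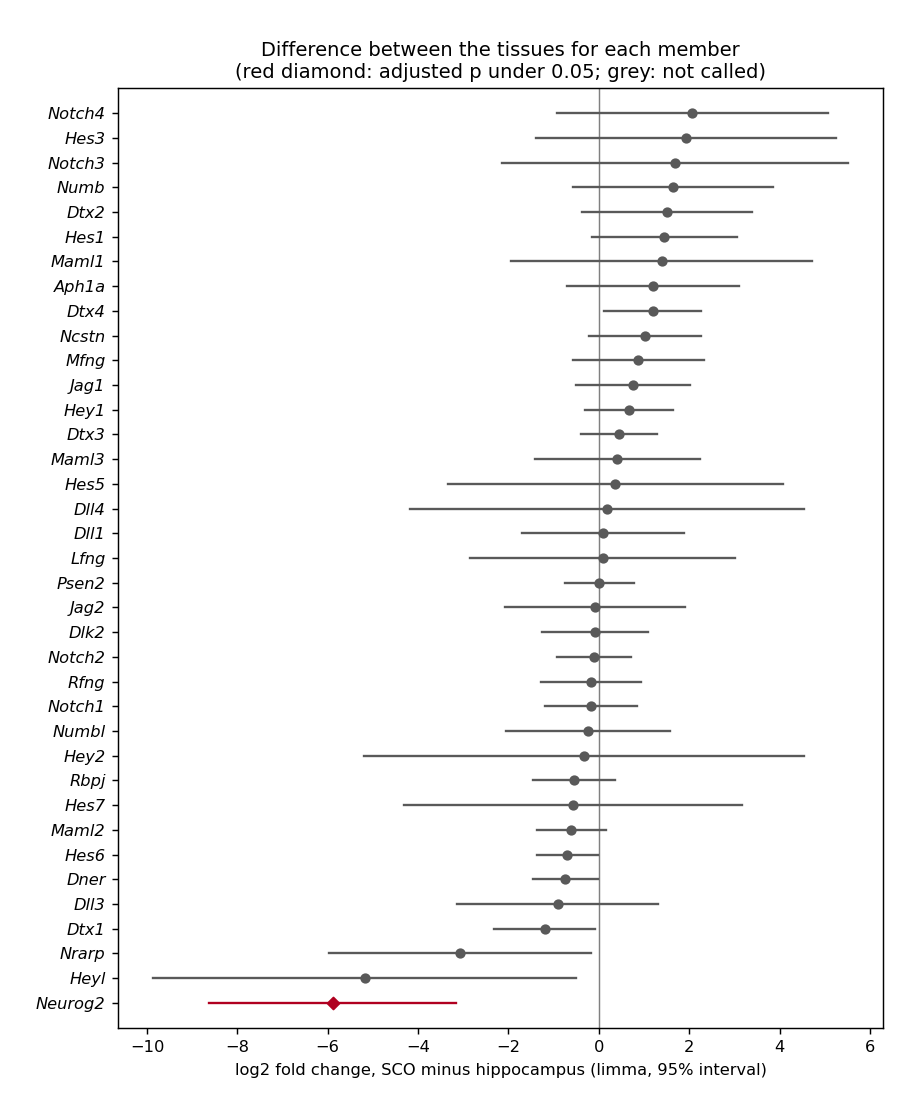
Log2 fold change of each of the 37 members, SCO minus hippocampus, on the log2(normalized counts + 1) scale, with the 95% interval from limma (4 SCO and 5 hippocampal libraries). Neurog2, at -5.89, is the only gene drawn as called, the intervals of Heyl, Nrarp, Dtx1, Dner, Hes6 and Dtx4 exclude 0 before adjustment, and all others span 0.

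Of the 4 receptors, Notch2 was the most abundant per length in both tissues and its difference between the tissues lay within 1 log2 unit over the whole 95% interval. Notch2, which with Notch1 is a receptor of radial glia in mice, had 1265, 1336, 1349.6 and 709 normalized counts in SCO libraries 1 to 4, against 1496, 1922, 1104, 869 and 948 in hippocampal libraries 1 to 5. The ranges overlap along most of their length, with SCO 4 below its fellows, and the log2 fold change was -0.10 ± 0.37 (SE) with a 95% interval of -0.92 to 0.71 (adjusted p = 0.907 by limma). Notch1 was likewise mixed between the tissues, with 312 to 885 normalized counts in SCO and 445 to 919.6 in hippocampus (log2 fold change -0.18 ± 0.46 (SE), adjusted p = 0.868).

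Notch3 and Notch4, the receptors best known from the blood vessel wall, from mural cells and endothelium, varied far more. Notch3 had 169, 519.8, 73.0 and 428 normalized counts in SCO, against 366, 0, 61.9, 88.9 and 906 in hippocampus, so both extremes lay in hippocampus and the means, 297 ± 211 in SCO (SD, n = 4) and 284 ± 375 in hippocampus (SD, n = 5), nearly coincided. Its log2 fold change of 1.68 ± 1.73 (SE) was 0.14 without hippocampus 2, the library without a read, -0.16 without SCO 4 and hippocampus 2, and 0.029 by edgeR. Notch4 had 158, 282, 103 and 186 normalized counts in SCO, against 199.7, 101, 66.0, 59.6 and 0.381 in hippocampus. All 4 SCO libraries were above 4 of the 5 hippocampal ones, but hippocampus 1 lay within the SCO range and the difference was not called (log2 fold change 2.07 ± 1.35 (SE), adjusted p = 0.52). The fold change was 0.85 without hippocampus 5 and 1.06 by edgeR. Summed levels of 16 endothelial markers were 0.0418% to 0.0551% of all normalized counts in SCO and 0.0194% to 0.0315% in hippocampus, without overlap, and those of 14 mural markers were 0.0343% to 0.0571% in SCO and 0.0201% to 0.0413% in hippocampus, with overlap; their part in the values of Notch3 and Notch4 was not tested.

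Per kilobase of exon, Notch2 led the receptors in 8 of 9 libraries. Notch2 averaged 108 normalized counts per kilobase in SCO and 118 in hippocampus, Notch1 39.9 and 42.6, Notch3 36.7 and 35.2, and Notch4 22.6 and 10.6. Notch2 stood above Notch1 and Notch4 in 9 of 9 libraries and above Notch3 in 8 of 9, the exception being a hippocampal library. Notch1 was above Notch3 in 5 of 9 libraries only, so those neighbours in the order cannot be placed. Notch2 made up 52.7% ± 15.7 of the summed receptor level per kilobase in SCO and 57.2% ± 15.6 in hippocampus (SD).

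**Figure D2:**
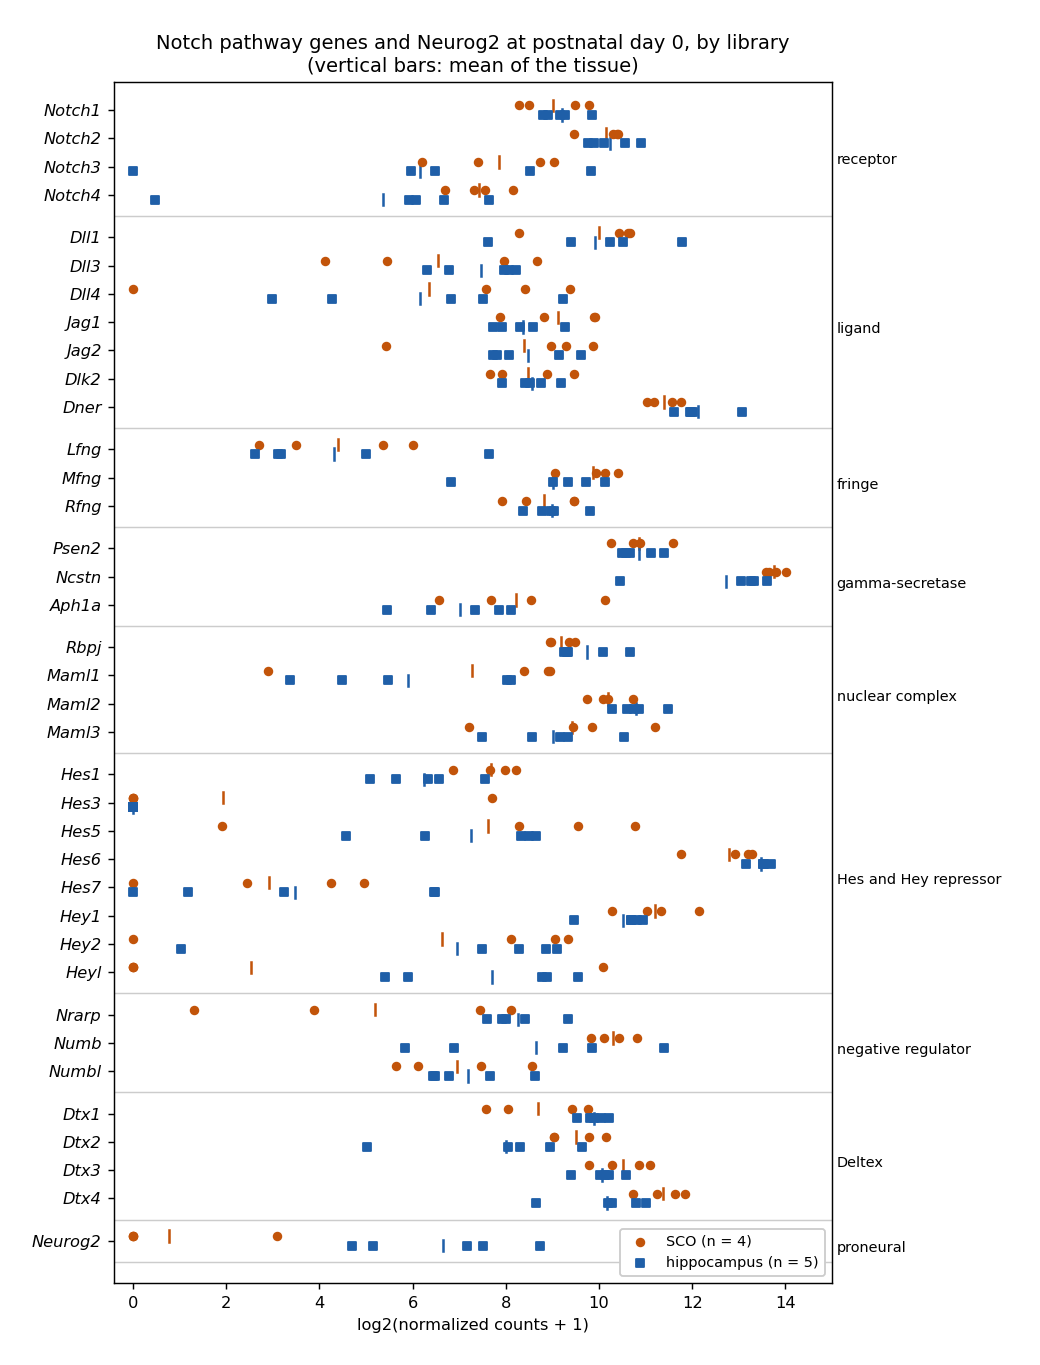
Each member in each library as log2(normalized counts + 1), grouped by role, with SCO (orange circles, n = 4) and hippocampus (blue squares, n = 5) and a vertical bar at the tissue mean. Notch2, Psen2 and Hes6 have tight points, Heyl, Hey2, Dll4 and Notch3 include libraries at or near 0, and the Neurog2 points of SCO lie wholly left of those of hippocampus.

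Among the 7 ligands, the atypical ligand Dner, a neuronal transmembrane protein, was the most abundant per length. The Delta ligand Dll1 came next by its mean, though not in every library. Dner had 2307, 2089, 3034 and 3488 normalized counts in SCO, against 3997, 3970.2, 4161, 3100.4 and 8615 in hippocampus. Apart from hippocampus 4, every hippocampal library lay above every SCO library, and the mean was 2729.5 ± 647 in SCO (SD, n = 4) and 4769 ± 2189.9 in hippocampus (SD, n = 5). The log2 fold change of -0.74 ± 0.32 (SE) did not pass the adjusted threshold (adjusted p = 0.308 by limma). Per kilobase, Dner made up 41.0% ± 6.37 of the summed ligand level in SCO, with a range of 35.3% to 49.0%, and 56.9% ± 3.88 in hippocampus, with a range of 52.4% to 63.1%.

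Dll1, the Delta ligand that proneural factors switch on in the mouse neural tube, did not differ beyond its spread. It had 1613, 1369, 1579.7 and 312 normalized counts in SCO, against 674, 195, 1452, 1197 and 3514 in hippocampus (log2 fold change 0.09 ± 0.81 (SE), adjusted p = 0.965). The hippocampal libraries spanned the whole SCO range and beyond it. Jag1, which is expressed by progenitors and vessels, had 949, 966, 449 and 235 normalized counts in SCO, against 209.7, 617, 383, 315 and 242 in hippocampus, with SCO 1 and SCO 2 above every hippocampal library and SCO 4 within them (log2 fold change 0.77 ± 0.57 (SE), adjusted p = 0.584). Leaving out single libraries gave 0.50 to 1.18 for Jag1. Without SCO 4 and hippocampus 2 together it was 1.41 and still not called (adjusted p = 0.197 by limma). Dner stood above Dll1 per kilobase in 9 of 9 libraries and Dll1 above Jag1 in 8 of 9. Dlk2 lay between Dll1 and Jag1 by its mean per kilobase, 191 against 289 and 112 in SCO. In hippocampus it was 186 against 333 and 60.7. Dlk2 stood above Dll1 in SCO 4, hippocampus 1 and hippocampus 2 and below it in the others.

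The other 4 ligands showed no difference beyond their spread. Dll3, which acts within the cell and blocks Notch in the same cell, had 16.4 to 407 normalized counts in SCO and 78.4 to 297 in hippocampus. Dll4, known for its part in vessel sprouting, was at 0 in SCO 2 and at 191 to 663 normalized counts in the other SCO libraries, and it had 6.95 to 598 in hippocampus. Jag2, a second Jagged ligand, had 41.8 to 940.2 normalized counts in SCO and 211 to 784 in hippocampus, and Dlk2, an atypical inhibitory ligand, 201 to 704 in SCO and 242 to 579 in hippocampus. Their log2 fold changes lay between -0.91 for Dll3 and 0.18 for Dll4, and their adjusted p-values by limma between 0.666 and 0.974. Reads of Dll1 may include those of A930024N18Rik, a gene on the opposite strand that covers 20.5% of its exon bases, because no source used here says whether reads were counted by strand.

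Fringe enzymes lengthen the sugar chains of Notch receptors and so alter their response to Delta and Jagged ligands. Mfng, the most abundant of the 3, had 976, 1351, 1112 and 534 normalized counts in SCO, against 849, 112, 519, 644 and 1112 in hippocampus. The tissues overlapped along most of their range, with hippocampus 2 far below the rest, and the log2 fold change was 0.87 ± 0.65 (SE; adjusted p = 0.587 by limma) with that library and 0.33 without it. Rfng had 240.1 to 709.6 normalized counts in SCO and 328 to 890.5 in hippocampus. Lfng, the Fringe member with the best known oscillation in the embryo, was the scarcest at 5.48 to 63.8 normalized counts in SCO and 5.16 to 198 in hippocampus, and per kilobase Rfng stood above Lfng in 9 of 9 libraries.

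The gamma-secretase subunits were led by Ncstn, which encodes nicastrin, the subunit that takes in the receptor stub. Ncstn had 12846, 14226, 16623 and 12296 normalized counts in SCO, against 9761, 1408, 8411, 12433 and 10193 in hippocampus. SCO 1 to 3 were above every hippocampal library, SCO 4 was just below hippocampus 4, and hippocampus 2 was by far the lowest. The means were 13998 ± 1929 in SCO (SD, n = 4) and 8441 ± 4189.6 in hippocampus (SD, n = 5), and the log2 fold change of 1.03 ± 0.56 (SE) was not called (adjusted p = 0.422) and was 0.46 without hippocampus 2.

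Psen2, a catalytic subunit, was the member with the smallest difference, with 1219, 3080.2, 1873 and 1704 normalized counts in SCO, against 1530.5, 2678, 1627, 2205 and 1446 in hippocampus (log2 fold change 0.01, 95% interval -0.75 to 0.77). The hippocampal values all lay inside the SCO range. Aph1a, a scaffold subunit, ran from 94 to 1113 normalized counts in SCO and from 42.4 to 276 in hippocampus, with SCO 4 alone far above the rest (log2 fold change 1.20 ± 0.86 (SE), adjusted p = 0.563, and 0.57 without SCO 4). Per kilobase, Ncstn averaged 3521 normalized counts in SCO and 2124 in hippocampus, Psen2 454 and 438, and Aph1a 129 and 45.9. Psen2 exceeded Aph1a in 9 of 9 libraries. Car14, a protein-coding gene on the opposite strand, covers 12.9% of the exon bases of Aph1a, and the strand setting is not given.

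In the nucleus, Rbpj and the Mastermind co-activators were present in both tissues. Maml2, the most abundant Mastermind gene, had 1689, 1091, 849 and 1173 normalized counts in SCO, against 2870.0, 1235, 1846, 1549 and 1730.0 in hippocampus. SCO 2, SCO 3 and SCO 4 were below every hippocampal library while SCO 1 lay among them, and the log2 fold change was -0.61 ± 0.34 (SE; adjusted p = 0.445 by limma). Rbpj had 652, 490.2, 711 and 501 normalized counts in SCO, against 610.4, 637, 1093, 642 and 1617 in hippocampus (log2 fold change -0.55 ± 0.41 (SE), adjusted p = 0.591). Its SCO values sat close together, and hippocampus 3 and hippocampus 5 lay well above them.

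Maml1 and Maml3 were uneven within each tissue. Maml1 had 476, 492, 6.39 and 336 normalized counts in SCO, against 277, 21.5, 9.29, 259 and 43.4 in hippocampus, and Maml3 ran from 146 to 2357 in SCO and from 178 to 1490.2 in hippocampus. Neither was called (adjusted p = 0.663 for Maml1 and 0.83 for Maml3 by limma). Maml2 stood above Maml1, Maml3 and Rbpj per kilobase in 9 of 9 libraries.

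The Hes and Hey repressors were dominated by Hes6 in both tissues, and its share of the family was smaller in SCO. Hes6 differs from the rest of the family in that, in mice, it opposes Hes1 and favours neuronal differentiation. It had 10035, 9389.7, 3457 and 7684 normalized counts in SCO, against 9142, 13154, 11820.4, 11854 and 11666 in hippocampus. SCO 3 was the lowest library, SCO 1 and SCO 2 overlapped with hippocampus 1, and the log2 fold change of -0.69 ± 0.31 (SE) was not called (adjusted p = 0.311 by limma). Per kilobase, Hes6 made up 73.1% ± 5.88 of the summed level of the 8 genes in SCO, with a range of 65.9% to 78.0%, and 88.1% ± 3.22 in hippocampus, with a range of 84.3% to 92%. These ranges do not overlap; the share is given as a description, without a test.

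The remainder was mostly Hey1, a repressor expressed by neural progenitors and vessels. Hey1 had 4546, 2557, 2096 and 1236 normalized counts in SCO, against 1813, 702, 1657, 1960.3 and 1647 in hippocampus. SCO 1 to 3 lay above every hippocampal library and SCO 4 below 4 of the 5 (log2 fold change 0.67 ± 0.44 (SE), adjusted p = 0.521). It held 14.7% ± 7.17 of the family level per kilobase in SCO and 6.75% ± 2.46 in hippocampus (SD). Hes6 stood above Hey1, and Hey1 above Hes1, in 9 of 9 libraries.

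Hes1 and Hes5 are the pair through which Notch maintains radial glia in the mouse brain. Hes1 had 252, 202, 298 and 116 normalized counts in SCO, against 93.6, 187, 33.0, 79.7 and 48.7 in hippocampus. SCO 1 to 3 were above all 5 hippocampal libraries and SCO 4 was below hippocampus 2 alone, and the log2 fold change of 1.45 ± 0.72 (SE) was not called (adjusted p = 0.372). It was 1.17 to 1.78 with single libraries left out and 2.05 without SCO 4 and hippocampus 2, and was not called in any of these settings. Hes5 had 1752, 309, 2.74 and 751 normalized counts in SCO, against 358, 320.3, 22.7, 75.7 and 398 in hippocampus, and so spread more within each tissue than between them (log2 fold change 0.37 ± 1.68 (SE), adjusted p = 0.93). Its fold change was 2.28 without SCO 3, -0.68 without SCO 1 and -0.27 without SCO 4. An antisense partner, Gm20421, covers 31.8% of the exon bases of Hes5, and without the strand setting it is not known whether reads of the pair were counted apart. Summed levels of 13 radial glia and astrocyte markers were 0.317% to 0.576% of all normalized counts in SCO and 0.294% to 0.344% in hippocampus, with overlap. Of the 13, 10 had a positive fold change, limma called 1 higher and 1 lower, edgeR called 2 and DESeq2 6. Over all genes limma called 3.05%, edgeR 1.79% and DESeq2 12.8%. The part of these markers in the Hes values was not tested.

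**Figure D3:**
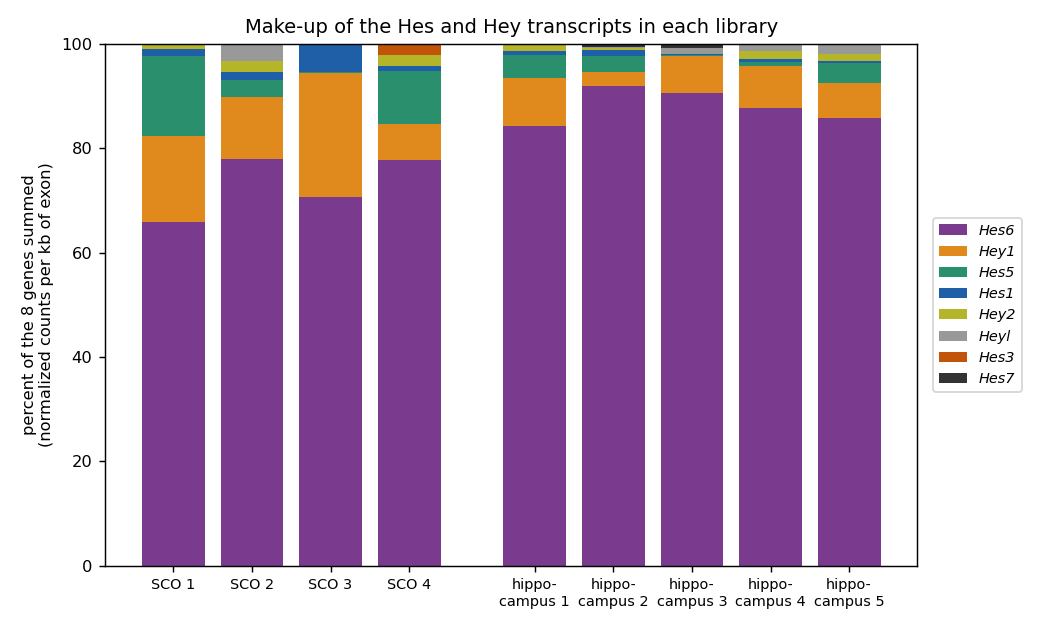
Share of each gene in the summed level of the 8 Hes and Hey genes (percent, from normalized counts per kilobase of exon) in each of the 4 SCO and 5 hippocampal libraries. Hes6 takes 65.9% to 78.0% in SCO and 84.3% to 92% in hippocampus, and Hey1 and Hes5 fill most of what is left.

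Heyl, Hey2, Hes7 and Hes3 each had libraries with no read. Heyl, a Hey repressor known from smooth muscle and neural precursors, had 1085 normalized counts in SCO 2 and 0 in SCO 1, SCO 3 and SCO 4, against 58.7, 41.3, 439, 473 and 753 in hippocampus. The difference therefore depended on that single SCO library: with it the log2 fold change was -5.18 ± 2.11 (SE; adjusted p = 0.265 by limma) and without it -7.71 (adjusted p = 0.0158). On the recovered reads of all 9 libraries edgeR gave -0.45 (adjusted p = 0.943). Hey2 had 278, 642, 0 and 527 normalized counts in SCO, against 312, 178, 1.03, 543 and 464 in hippocampus, where SCO 3 and hippocampus 3 stood apart from their fellows in the same way. Hes7, the segmentation clock gene of the embryo, had 0 to 29.8 normalized counts in SCO and 0 to 88.7 in hippocampus. Hes3 was at 0 in 8 libraries and had 208 normalized counts in SCO 4. At these depths a count of 0 allows up to 3 reads, or on average 3.75 normalized counts in an SCO library and 2.81 in a hippocampal one.

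The promoters of Hes5 and Hes6 are shown because Hes5 is the textbook target of the RBPJ complex and Hes6 the most abundant repressor in these libraries. Both are RefSeq windows of GRCm38.p6, from 250 bases before to 50 after the start of the gene, written 5′ to 3′ on the strand of the gene: Hes5 at chr4:154960673-154960972 on the plus strand and Hes6 at chr1:91413989-91414288 on the minus strand. Capitals mark matches on either strand to TGGGAA (the core of the RBPJ site), CACNAG (the N box bound by Hes proteins) and CAGCTG and CAGATG (E boxes bound by neuronal bHLH factors), which do not contain each other.
Hes5: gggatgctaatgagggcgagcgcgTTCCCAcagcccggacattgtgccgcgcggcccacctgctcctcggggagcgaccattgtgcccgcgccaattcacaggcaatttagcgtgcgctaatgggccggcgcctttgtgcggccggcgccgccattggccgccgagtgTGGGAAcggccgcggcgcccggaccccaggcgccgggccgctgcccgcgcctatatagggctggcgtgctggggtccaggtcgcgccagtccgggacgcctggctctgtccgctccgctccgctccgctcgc
Hes6: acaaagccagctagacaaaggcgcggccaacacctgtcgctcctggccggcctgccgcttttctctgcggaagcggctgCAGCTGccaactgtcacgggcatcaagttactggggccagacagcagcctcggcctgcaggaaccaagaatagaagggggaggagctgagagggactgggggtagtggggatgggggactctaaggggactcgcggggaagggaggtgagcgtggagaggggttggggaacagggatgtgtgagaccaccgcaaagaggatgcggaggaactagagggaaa
The Hes5 window holds 2 copies of the RBPJ core, 1 on each strand, and the Hes6 window holds 1 CAGCTG and no RBPJ core. RefSeq has another Hes6 window, at chr1:91413173-91413472 on the minus strand, which holds 2 N boxes, 1 CAGCTG and no RBPJ core. Over all 32851 promoters of the same length, 25.6% hold the RBPJ core and 3.79% hold it at least 2 times, 42.5% hold the N box, 16.3% hold CAGCTG and 17.2% hold CAGATG. Of the members, 30 had an entry, with 38 windows between them, and 11 of those windows (28.9%), from 10 genes, hold the RBPJ core. A match says that the letters are present and nothing of binding.

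The negative regulators of the pathway varied widely within each tissue. Numb, an endocytic adaptor that lowers Notch at the membrane, had 1798, 1097, 1374 and 903 normalized counts in SCO, against 916, 56.1, 2709.5, 599.7 and 117 in hippocampus. The hippocampal libraries enclosed all 4 SCO libraries, from far below to above them (log2 fold change 1.65 ± 1.00 (SE), adjusted p = 0.49 by limma). The fold change of Numb was 0.95 without hippocampus 2 and 0.52 by edgeR. Nrarp, a target of Notch that destabilises the nuclear complex, had 175, 1.48, 13.7 and 274 normalized counts in SCO, against 256, 642, 240.4, 194 and 339 in hippocampus. SCO 1 to 3 lay below all 5 hippocampal libraries and SCO 4 among them (log2 fold change -3.07 ± 1.31 (SE), adjusted p = 0.29). The fold change was -1.77 without SCO 2, -4.04 without SCO 4, -1.55 by edgeR and -1.53 by DESeq2. The antisense gene Gm38287 covers 79.4% of the exon bases of Nrarp. Without the strand setting it is not known whether reads of Nrarp were counted apart from those of this neighbour. Numbl, the relative of Numb, had 49.2 to 378 normalized counts in SCO and 86.1 to 393 in hippocampus.

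The Deltex genes encode ubiquitin ligases, of which Dtx1, Dtx2 and Dtx4 bind the intracellular part of Notch. Per kilobase, Dtx3 averaged 599.7 normalized counts in SCO and 431 in hippocampus and Dtx4 527 and 253, with Dtx3 above Dtx4 in 8 of 9 libraries. Dtx4 had 1707, 3188, 3681 and 2437 normalized counts in SCO, against 1247, 398, 1769, 1161 and 2045 in hippocampus. SCO 2, SCO 3 and SCO 4 were above every hippocampal library, and its log2 fold change of 1.19 ± 0.48 (SE), with a 95% interval of 0.12 to 2.26, came nearest to a call on the higher side (adjusted p = 0.264 by limma). Dtx1 had the lower mean in SCO and was not called either, with 680.4, 190.5, 262 and 871 normalized counts in SCO, against 1056, 741, 896, 1187 and 956 in hippocampus (log2 fold change -1.20 ± 0.50 (SE), adjusted p = 0.283). Only SCO 4 reached into the hippocampal range of Dtx1. Dtx2 had 520.5 to 1131 normalized counts in SCO and 31.4 to 799 in hippocampus, with a log2 fold change of 1.5 in all libraries and 0.76 without hippocampus 2. Dtx3 had 877 to 2185 in SCO and 673 to 1525 in hippocampus.

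Neurog2, which commits progenitors of the dorsal forebrain to become glutamatergic neurons, was lower in SCO. The gene lies at 127633135 to 127635631 on the plus strand of chromosome 3 (GRCm38). It had 7.46 normalized counts, or 5 reads, in SCO 1 and no read in SCO 2, SCO 3 and SCO 4, against 144, 428, 182, 34.7 and 25.1 normalized counts in hippocampus. Every hippocampal library was above every SCO library, although the hippocampal values themselves spanned a wide range. The log2 fold change on the log2(normalized counts + 1) scale was -5.89 ± 1.23 (SE; 95% interval -8.62 to -3.16; adjusted p = 0.0308 by limma), and since 3 SCO libraries are at 0 its size depends on the pseudocount. In the authors' deposited table the log2 fold change of Neurog2 was -6.52 with a standard error of 1.51 and an adjusted p of 0.000395. In bulk tissue, fewer cells that express a gene and less RNA per cell cannot be told apart.

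The direction held with each of the 9 libraries left out and under the 10 other settings tried, but the call did not. DESeq2 on the recovered reads called Neurog2 (adjusted p = 0.000443), whereas edgeR's quasi-likelihood test on the same reads did not (log2 fold change -6.44, adjusted p = 0.171). Leaving out single libraries gave log2 fold changes of -6.66 to -5.37 and adjusted p-values of 0.0268 to 0.0812, and the call was lost without SCO 2, SCO 3, SCO 4, hippocampus 1 or hippocampus 3. Without SCO 4 and hippocampus 2 together the log2 fold change was -5.11 (adjusted p = 0.092).

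The promoter of Neurog2, the only member called by limma on all libraries together, is at chr3:127632886-127633185 on the plus strand of GRCm38.p6 in RefSeq, with the same motifs in capitals.
Neurog2: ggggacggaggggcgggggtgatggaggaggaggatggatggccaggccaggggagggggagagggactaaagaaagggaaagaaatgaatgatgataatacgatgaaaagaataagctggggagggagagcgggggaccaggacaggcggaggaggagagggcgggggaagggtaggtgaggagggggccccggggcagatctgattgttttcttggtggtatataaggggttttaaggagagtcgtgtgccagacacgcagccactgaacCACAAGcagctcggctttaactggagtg
It holds 1 N box, a sequence that 42.5% of all promoters hold, and none of the other 3 motifs within this window.

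Beyond Neurog2, the listed proneural and neuronal bHLH factors and their partners included several genes with far lower levels in SCO. Of 23 such genes tested, limma called 1 higher and 6 lower in SCO, where it called 1.71% of all genes higher and 1.34% lower. Their median log2 fold change was -1.64, against -0.04 over all genes. Bhlhe22, a repressor of the dorsal forebrain, had 0, 0, 0 and 1.12 normalized counts in SCO, against 1589, 2788, 648, 688 and 193 in hippocampus (log2 fold change -9.42 ± 0.98 (SE), adjusted p = 0.000792). Insm1, a zinc-finger factor of neuronal progenitors downstream of proneural genes, had no read in SCO and 231, 366, 254, 265 and 192 normalized counts in hippocampus, at least 69.8-fold lower in SCO when 3 reads are allowed in each SCO library (adjusted p = 0.000818). In both genes the tissues were far apart in every library.

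Neurod1, Neurod2 and Neurod6, neuronal differentiation factors that act after Neurog2, were also lower in SCO. Neurod1 had 1749, 1627, 772 and 330.2 normalized counts in SCO, against 9389, 5065, 6987, 6033 and 11094 in hippocampus (log2 fold change -3.0 ± 0.49 (SE), adjusted p = 0.00897). Neurod2 had 29.8, 5.91, 63.9 and 1.12 normalized counts in SCO, against 831, 1567, 772, 1062 and 534 in hippocampus (log2 fold change -6.10 ± 0.99 (SE), adjusted p = 0.0088). For Neurod6, a gene of pyramidal neurons, there were 1462, 1773, 0.913 and 1321 normalized counts in SCO, against 81212, 64361, 79355, 83389.5 and 70475 in hippocampus (log2 fold change -8.05 ± 1.74 (SE), adjusted p = 0.0347). SCO 3 was the lowest library by far for Neurod6, yet the other SCO libraries were also far below hippocampus. Neurod4 was not called, with 7144, 633, 503 and 279.8 normalized counts in SCO and 241 to 2935 in hippocampus.

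The E proteins with which these factors pair went in opposite directions. Tcf4 was lower in SCO, with 6768, 8489, 10764 and 9843 normalized counts there, against 100529, 57121, 86721, 82626 and 102525 in hippocampus (log2 fold change -3.25 ± 0.21 (SE), adjusted p = 7.47e-05). Tcf12 was higher in SCO, with 8712, 12199.7, 12394 and 10884 normalized counts there, against 4377, 1743, 4446, 2049 and 4250.0 in hippocampus (log2 fold change 1.81 ± 0.34 (SE), adjusted p = 0.0174). Both differences separated every library. Tcf3, the third E protein, had 441 to 598 normalized counts in SCO and 315 to 678 in hippocampus.

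Among the Id inhibitors, which keep E proteins from binding DNA, Id4 had 898 to 1446 normalized counts in SCO and 230.1 to 847 in hippocampus and so did not overlap, but was not called (adjusted p = 0.161). Id2 had 11937 to 18414 normalized counts in SCO and 18390.2 to 49179 in hippocampus (adjusted p = 0.0589).

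Of 12 markers of intermediate progenitors and newborn neurons, 10 had a negative fold change and 2 a positive one. Their summed level was 0.171% to 0.276% of all normalized counts in SCO and 0.367% to 0.418% in hippocampus, without overlap. Limma called 4 of the 12 lower in SCO and 0 higher, and Neurod1, already described above, is among the 4. Tbr1, which defines newborn pyramidal neurons, had 0, 0, 0 and 12.3 normalized counts in SCO, against 542, 2628, 1137, 1238 and 1123 in hippocampus. Markers of telencephalic interneurons had 4 of 10 called lower in SCO and 0 higher, with 7 negative and 3 positive fold changes. Dlx1, Dlx2 and Dlx6 were at 0 in all SCO libraries. The 10 markers summed to 0.0149% to 0.108% in SCO and 0.0422% to 0.0720% in hippocampus, with overlap, and SCO 4 was the highest library. Cycling-cell markers summed to 0.0435% to 0.0595% in SCO and 0.0480% to 0.0742% in hippocampus, with overlap, and 0 of 15 were called by limma, edgeR or DESeq2, with 2 at an unadjusted p under 0.05. Markers of microglia, 13 in number, summed to 0.0914% to 0.120% in SCO and 0.0377% to 0.0585% in hippocampus, without overlap. Of these, 13 of 13 had a positive fold change, and limma called 2 higher, while edgeR called 2 and DESeq2 7. The 11 markers of the oligodendrocyte lineage summed to 0.0499% to 0.0581% in SCO and 0.0271% to 0.0444% in hippocampus, also without overlap, with 11 of 11 positive and 0 called by limma, edgeR or DESeq2, 5 having an unadjusted p under 0.05. Over all genes, limma called 3.05%, edgeR 1.79% and DESeq2 12.8%. The part of the cell types named here in the bHLH values, or in those of the Notch genes, was not tested.

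**Figure D4:**
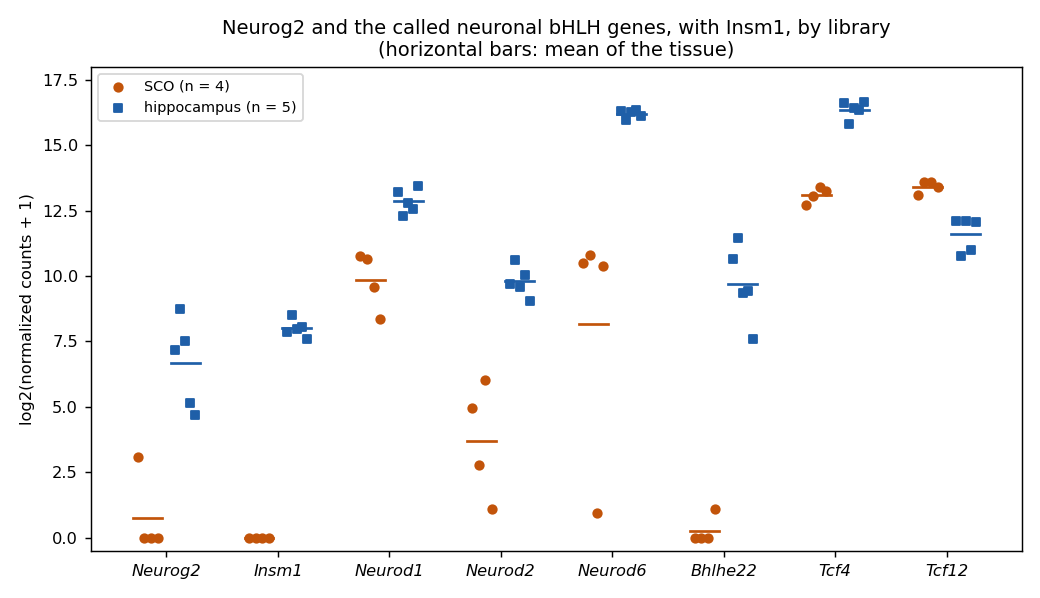
Neurog2, Insm1 and the called bHLH factors in each library as log2(normalized counts + 1), SCO left (orange circles, n = 4) and hippocampus right (blue squares, n = 5), with a bar at the tissue mean. For each gene the tissues do not overlap: the SCO points lie below the hippocampal ones everywhere but in Tcf12, and Insm1 is at 0 in all SCO libraries.

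No other listed pathway gene was called by limma. Of 28 further genes for ligand endocytosis, receptor maturation and proteolysis, 0 were called in either direction, and the median log2 fold change was -0.14. At an unadjusted p under 0.05 by limma there were 7 of the 28, a share above the 15.5% of all genes, though none passed adjustment. Among the 28, edgeR's test called 0, and DESeq2 called 4, Adam17, Poglut2 and Dlk1 higher and Aph1b lower in SCO, where DESeq2 called 12.8% of all genes. There were 3 of the 28 that did not overlap between the tissues, all with SCO above: Adam17, Poglut2 and the ubiquitin ligase gene Nedd4. Over all genes 8.53% did not overlap, so the counts without overlap and by DESeq2 are near the background and are no result about the list. Of these, Adam17, a sheddase that can cut Notch at the cell surface, averaged 4368 ± 1349.0 (SD) normalized counts over the SCO libraries and 1981 ± 748 over the hippocampal ones (log2 fold change 1.22 ± 0.42 (SE), adjusted p = 0.17 by limma), and Poglut2, an enzyme that adds glucose to Notch, averaged 4219 ± 1358 in SCO and 1639 ± 713 in hippocampus (adjusted p = 0.0854 by limma). Dlk1, an atypical ligand without the Delta domain that binds Notch, had 364, 19.2, 28.3 and 88.4 normalized counts in SCO, against 20, 0, 14.4, 1.83 and 4.57 in hippocampus, with SCO 2 alone inside the hippocampal range (log2 fold change 3.59 ± 1.32 (SE), adjusted p = 0.205). Aph1b, a scaffold subunit of gamma-secretase like Aph1a, had 1089, 846, 1432 and 553 normalized counts in SCO, against 1823, 1271, 2913, 2730.0 and 2544 in hippocampus, with SCO 3 above hippocampus 2 (log2 fold change -1.22 ± 0.38 (SE), adjusted p = 0.13). Of 24 nuclear co-factors and further targets, 0 were called by limma or edgeR and 1, Crebbp, by DESeq2, 5 had an unadjusted p under 0.05, against 15.5% of all genes, and the median log2 fold change was -0.44. Crebbp, a co-activator acetyltransferase, averaged 1527 ± 473 normalized counts in SCO and 2840.0 ± 782 in hippocampus, without overlap (adjusted p = 0.18 by limma). Adam17, Poglut2, Nedd4, Dlk1, Aph1b and Crebbp were named here after their values were seen.

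How far libraries of the same tissue scattered set the limit of these comparisons. The standard deviation divided by the mean had a median of 0.521 over 34 members in SCO and 0.578 over 35 members in hippocampus, counting only genes that averaged 50 normalized counts or more in that tissue, against 0.499 and 0.504 over all such genes. It ran from 0.138 for Ncstn to 2.00 for Heyl and Hes3 in SCO, and from 0.127 for Hes6 to 1.67 for Lfng in hippocampus. Of the 37 members, 7 had at least 1 library with no read. In 5, a library with no read stood beside another of the same tissue with at least 100 normalized counts. SCO 2 and hippocampus 2 were each the lowest library in 8 of 36 members, or 22.2%, where over all genes SCO 2 was the lowest in 12.9% and hippocampus 2 in 16.8%. SCO 3 was the lowest in 7 members, or 19.4%, against 13.5% over all genes. SCO 2 was also the highest library in 8 members, or 22.2%, against 15.2% over all genes. Where libraries tied, the earliest in number counted as the lowest, with SCO before hippocampus.

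**Figure D5:**
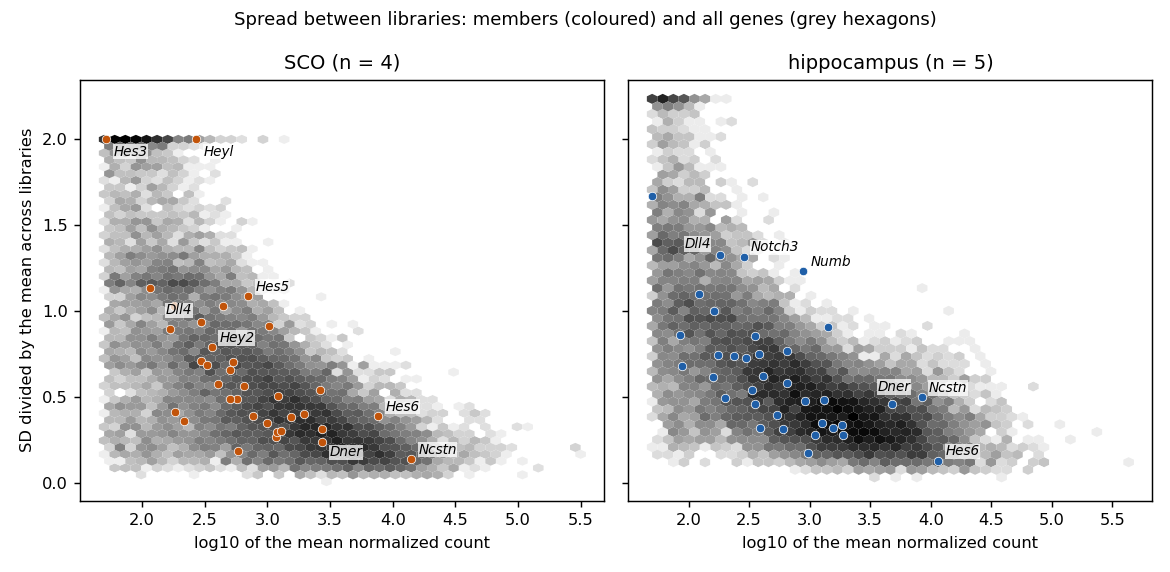
Standard deviation divided by the mean across libraries against the log10 of the mean normalized count, for members (coloured points) and all genes (grey hexagons, darker where more genes lie) with a mean of at least 50, in SCO (left, n = 4) and hippocampus (right, n = 5). Most members lie within the cloud of all genes, Heyl and Hes3 sit at 2.00, the value reached when a single library of 4 holds all reads, and Ncstn in SCO and Hes6 in hippocampus are the least variable members.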

How the data were processed

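RNA-seq libraries of SCO (n = 4) and hippocampus (n = 5) from newborn mice were compared. Per the labels' protocols, RNA was extracted with the RNeasy Micro Kit and libraries were made with a TruePrep kit. Per the submitters' processing notes, FastQC, HISAT, HISAT2, featureCounts and DESeq2 were used with GRCm38; the sources used here give no versions, annotation or strand setting. The authors deposited normalized counts (a signal: reads divided by 1 size factor per library). Dividing by the value of 1 read gave whole reads for 100% of values (tolerance 1e-06), from 35379988 to 151009954 per library. The authors' deposited comparison holds a log2 fold change and its standard error, a test statistic (score) and p-values, raw and adjusted, under DESeq2 column names per the file headers. No columns belonged to samples of another series.

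Here limma 3.58.1 (trend; R 4.3.3) was fitted to log2(value + 1) over the 28150 genes that averaged 1 or more in SCO or in hippocampus; a call needed a p below 0.05 after Benjamini-Hochberg adjustment. On the recovered reads, edgeR 4.0.16 and DESeq2 1.42.0 were alternatives, as were other pseudocounts, filters, TMM factors, robust moderation, a replicate block and leaving out libraries. Scripts were tested on simulated counts. Exon lengths are from GENCODE M21 (31302 of 31883 identifiers matched). A search of protein sequences was planned and not run. Full values are given for each called member and for the most abundant member of each role, and for up to 4 called genes of other lists; Notch1, Notch3, Notch4, Dll1, Jag1, Psen2, Rbpj, Maml1, Hey1, Hes1, Hes5, Heyl, Hey2, Nrarp, Dtx1, Neurod4, Tcf4, Tcf12 and the Id genes were added after their values were seen. The values of 1 gene of the listed bHLH factors are not reported here. Members and lists were chosen with earlier results of these data known. The same replicate numbers in both tissues do not mark shared animals in the labels. Bounds on counts of 0 reflect counting error alone, and reads not tagged with molecular identifiers are not independent. A size factor scales all genes of a library alike, so a library of different make-up shifts as a whole.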

Additional observations from a re-analysis of the deposited data

Results flagged for a closer look

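A gap test for a single library that stands apart from its tissue, on log2(normalized counts + 1), was met in 12 of 74 groups (16.2%). The critical value is set so that chance gives about 1 in 20 for normally distributed values, but over all genes tested, in both tissues, 20.8% of 56300 groups met it, so the members' share is not above the background. In 3 of the 12, all in SCO, the library that stands apart is the only one with a read. In SCO, library 4 was the lowest for Notch2 at 709 normalized counts and for Dll1 at 312, and the highest for Hes3 at 208. SCO 3 was the lowest for Maml1 at 6.39 and for Hey2 at 0. SCO 2 was the highest for Heyl at 1085, and SCO 1 the highest for Neurog2 at 7.46, each beside 3 libraries with no read. In hippocampus, library 2 was the lowest for Ncstn at 1408 and for Hey1 at 702, library 3 the lowest for Hey2 at 1.03, and library 5 the lowest for Notch4 at 0.381 and the highest for Dner at 8615. No explanation was tested for these values.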

How the results depend on the processing

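The count of 1 member called lower was 0 with a pseudocount of 10, with no filter on low values, with edgeR, with the replicate block and without SCO 4 and hippocampus 2 together, and 0 to 1 with single libraries left out; no member was called higher under any setting run. For Neurog2 the log2 fold change was -3.32 with a pseudocount of 10 (adjusted p = 0.0649) and -5.89 with no filter (adjusted p = 0.0501). Members that did not overlap numbered 1 to 7 with single libraries left out. The 7 came without SCO 4, where 11.8% of all genes did not overlap, against 8.53% with all libraries. For the other libraries left out the share over all genes was not counted, so those counts are no result about the members. Over all genes, 481 were called higher and 378 lower by limma, 300 and 203 by edgeR, 1493 and 1215 by DESeq2, and 285 to 647 and 189 to 430 with single libraries left out; the cause was not tested. With the replicate block these counts were 0 and 1, and the log2 fold change of Neurog2 was -6.38 (adjusted p = 0.147 by limma). No SCO library carries the replicate number of hippocampus 5, so the block fits that library by itself. The block's fold changes are therefore those without hippocampus 5 and carry no information on pairing. Same-numbered libraries had correlations of -0.03 to 0.02 in their deviations from the tissue means, against -0.03 to 0.06 for libraries with different numbers. Correlations this small cannot decide whether libraries share animals, and the labels leave it open. Of 699 log2 fold changes of single members under alternatives, 619 kept direction and call, 10 lost the call (all of Neurog2), 1 gained it (Heyl without SCO 2) and 69, all of members not called, changed sign; the cause was not tested. With the block, as without hippocampus 5, these were 0.21 for Jag2, 0.072 for Dlk2, -0.22 for Lfng, 0.035 for Rfng, -0.074 for Psen2, 0.15 for Hey2 and 0.11 for Numbl. With edgeR and with DESeq2 they were -0.24 and -0.21 for Dll1, 0.34 and 0.37 for Jag2, 0.013 and 0.041 for Dlk2, -0.75 and -0.73 for Lfng, and 0.23 and 0.27 for Hey2. Without SCO 4 and hippocampus 2 they were 0.29 for Notch2, -0.16 for Notch3, -0.98 for Dll4 and -0.0052 for Hes5. Other pseudocounts gave -0.040 for Dll4 (0.5), -0.021 for Lfng and 0.0066 for Hey2 (10), and TMM factors, which moved the median of all genes from -0.04 to -0.10, gave -0.050 for Psen2. With single libraries left out the ranges were -0.44 to 0.061 for Notch1, -0.22 to 0.12 for Notch2, -0.48 to 0.66 for Dll1, -0.83 to 2.30 for Dll4, -0.57 to 0.91 for Jag2, -0.41 to 0.19 for Dlk2, -0.46 to 0.92 for Lfng, -0.38 to 0.13 for Rfng, -0.23 to 0.22 for Psen2, -0.19 to 1.15 for Maml3, -0.68 to 2.28 for Hes5, -1.43 to 0.40 for Hes7, -1.81 to 1.88 for Hey2 and -0.78 to 0.19 for Numbl. Depth allows 3 reads behind each count of 0, which limits Neurog2, Heyl, Hey2, Hes3, Hes7, Dll4 and Notch3.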
